A study of Mus musculus with 2 samples.

Results

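The 6 genes described here, of 32589 genes listed in both count matrices, encode the main effector cytokines of type 17 immunity and the receptors around them. They are *Il17a*, *Il17f*, *Il22*, *Il23r*, *Ccr6* and *Il17ra*, and they were chosen by symbol. Type 17 lymphocytes make interleukin-17A, interleukin-17F and interleukin-22. Interleukin-23 from myeloid cells sustains them through its receptor, of which *Il23r* encodes the specific chain, and *Ccr6* encodes the receptor for the chemokine CCL20. Cells that carry interleukin-17 receptor A, including epithelium, fibroblasts and myeloid cells, answer with chemokines that draw neutrophils, and in liver and barrier tissues γδ T cells are a known early source of interleukin-17A.

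Single-cell RNA-Seq was performed on livers bearing cholangiocarcinoma that had been started by hydrodynamic tail vein injection of the Notch1 intracellular domain and myristoylated AKT. The mice carried doxycycline-inducible shRNAs against *Yap1* and *Wwtr1* (the gene for TAZ) under a ubiquitous CAG-rtTA3 driver, so that depletion reached tumor and stroma alike, and the shRNAs were switched on at day 25 after injection. The shYT_PBS group received PBS, the shYT_antiPD1 group received the anti-PD-1 antibody RMP1-14 on days 26, 29 and 32, and both were analyzed at day 33. Each group was 1 library, both groups carried the shRNAs, and the effect of the depletion itself was therefore not compared. The labels give neither the shRNA line, the sex nor the number of animals in a library. The study describes several animals per group, and the matrices hold no map from cells to animals.

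Cells were kept if they had between 500 and 5000 detected genes and a mitochondrial UMI share of no more than 10%. The PBS library held 15531 cells with a median of 3159 UMIs and the anti-PD-1 library 16360 cells with a median of 2990 UMIs. The libraries stood apart in sex-linked transcripts: *Xist* had 18452 UMIs with PBS and 11 with anti-PD-1, and Y-linked genes had 3113 and 15323. Of T cells, 1445 of the PBS library held an *Xist* UMI against 3 of the anti-PD-1 library, so the sex of the cells and the treatment cannot be told apart in the whole libraries. Values among cells with a Y-linked UMI and no *Xist* UMI, called Y-linked cells, are given beside the main results in T cells and in the other classes the text turns on. T cells among them numbered 359 and 2054. The libraries shared 145 barcodes among kept cells. Cell classes were gated by marker genes, and among the 10 genes that led each class its own markers outnumbered those of other classes. Since the gate used the same markers, this does not test the class names. T cells made up 21.9% of kept cells with PBS (3397 cells) and 22.5% with anti-PD-1 (3674 cells), whereas neutrophils made up 7.24% and 17.04%. T cells with a UMI of *Trdc*, the constant region of the T cell receptor δ chain, are called Trdc T cells here and numbered 119 and 134. The remaining T cells were divided by UMIs of *Foxp3*, *Cd8a* or *Cd8b1*, and *Cd4* into regulatory, CD8, CD4 and other T cells. The mix of these groups differed between the libraries, with CD8 T cells at 983 and 1479 and other T cells at 1324 and 964. T cells had a higher median depth with anti-PD-1, and after each was thinned to 1000 UMIs CD8 T cells made up 22.6% and 29.3% of T cells and other T cells 59.3% and 54.1%.

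Levels are UMIs of a gene per 1000000 UMIs (CPM) in the summed cells of a class, with an exact 95% Poisson interval. Log2 ratios set the anti-PD-1 library over the PBS library on the scale of CPM plus 5, which understates changes of low genes, and a gene was read for a 2-fold difference only where its mean level in the class was at least 10 CPM. A gene under 10 CPM in 1 of the libraries reached this limit only through the other, where it was higher, so it was selected for a difference and its 2-fold count supports nothing; such genes are named where they were counted as higher or lower. With 1 library per group there was no test, and all intervals cover counting error only, which is too narrow where many UMIs come from 1 cell. A summed level does not separate fewer expressing cells from less RNA per cell.

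*Il17a* and *Il17f* are neighbors on mouse chromosome 1. In GRCm38, *Il17a* (ENSMUSG00000025929) spans chr1:20730905-20734496 on the plus strand and *Il17f* (ENSMUSG00000041872) chr1:20777146-20790617 on the minus strand, with 42649 bases between their facing 3′ ends. *Il22* (ENSMUSG00000074695) lies at chr10:118204942-118210047, *Ccr6* (ENSMUSG00000040899) at chr17:8236043-8257141, and *Il23r* (ENSMUSG00000049093) and *Il17ra* (ENSMUSG00000002897) on chromosome 6 at chr6:67422932-67491855 and chr6:120463247-120487559.

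The 3 cytokine transcripts were rare in both libraries and sat in few cells. *Il17a* had 69 UMIs in 23 of the 15531 PBS cells and 177 UMIs in 42 of the 16360 anti-PD-1 cells, a 2.61-fold higher level with anti-PD-1 (95% counting interval 1.97 to 3.502). *Il17f* had 4 UMIs in 4 cells and 36 UMIs in 8 cells, a ratio of 9.16 (3.28 to 35.4). *Il22* had 3 UMIs in 3 cells and 145 UMIs in 47 cells, a ratio of 49.2 (16.5 to 241). All of these ratios had counting intervals above 1, but the UMIs of each gene were unevenly spread. In the anti-PD-1 library, the highest cell alone held 53 of the 177 *Il17a* UMIs and 22 of the 36 *Il17f* UMIs. For *Il22*, the highest cell held 19 of the 145 UMIs, and 23 cells with at least 2 UMIs held 121. *Iltifb*, a near-identical copy of *Il22* on the same chromosome, had 1 UMI with PBS and 3 with anti-PD-1, and how reads shared by the pair were counted is not given in the sources used here.

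The receptor genes differed by smaller ratios across whole libraries. *Il23r* had 173 UMIs in 110 cells with PBS and 99 UMIs in 66 cells with anti-PD-1, a ratio of 0.58 (0.45 to 0.75). *Ccr6* had 688 UMIs in 440 cells and 799 UMIs in 520 cells, a ratio of 1.18, and *Il17ra* had 7362 UMIs in 4464 cells and 7604 UMIs in 4750 cells, a ratio of 1.05. Sums over a whole library mix cell classes whose shares differed, so the levels within classes follow.

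**Figure D1:**
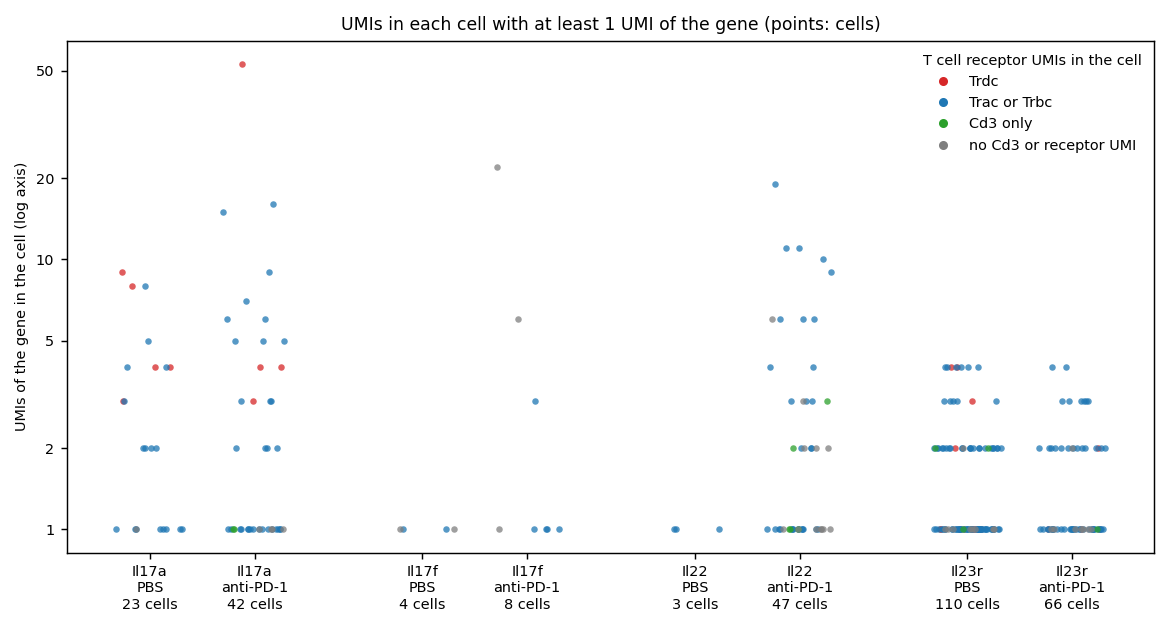
UMIs of Il17a, Il17f, Il22 and Il23r in every cell that held at least 1, on a log axis, by library and colored by the T cell receptor transcripts of the cell. Most cells held 1 or 2 UMIs, and single anti-PD-1 cells reached 53 UMIs of Il17a, 22 of Il17f and 19 of Il22.

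T cells held most *Il17a* transcripts in both libraries. Of all *Il17a* UMIs, 92.7% were in T cells with PBS and 87.0% with anti-PD-1. The level in T cells was 5.75 CPM with PBS (4.43 to 7.35; 64 UMIs) and 9.47 CPM with anti-PD-1 (8.03 to 11.1; 154 UMIs), a log2 ratio of 0.43 (0.18 to 0.67). The intervals did not overlap, but the value moved with the cells included. Without the cell with the most *Il17a* UMIs in each library the log2 ratio was 0.17 (-0.09 to 0.42). Among cells with a Y-linked UMI and no *Xist* UMI it was 0.05 (-0.59 to 0.66), at 9.48 CPM (11 UMIs) and 9.98 CPM (105 UMIs). Thinning all cells to 1000 UMIs gave 0.93. After this thinning 11 of 3343 T cells with PBS (0.329%) and 16 of 3625 with anti-PD-1 (0.441%) held an *Il17a* UMI. Without thinning the shares were 0.618% and 0.708%. Neutrophils, which should lack the transcript, gave 0 of 1018 cells (which allows a share of up to 0.295%) and 1 of 2722 (0.0367%) after thinning. Before thinning the median depth was 2709 and 3595.5 UMIs in T cells and 1577 and 2109 UMIs in neutrophils. The difference in the share of *Il17a* T cells was not detectable at this depth. By the thinned share alone, the PBS value lay too close to the limit set by neutrophils to be told from it. Before thinning, however, 56 of the 64 *Il17a* UMIs of PBS T cells were in 13 cells with at least 2 each, and up to 9.

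Trdc T cells held a large part of these transcripts in few cells. They carried 40.6% of the *Il17a* UMIs of the PBS library (exact binomial interval 28.9 to 53.1) and 32.2% of those of the anti-PD-1 library (25.4 to 39.6), and the intervals overlapped. In PBS 5 of 119 Trdc T cells held 28 *Il17a* UMIs (74.99 CPM, 49.8 to 108), and in anti-PD-1 2 of 134 held 57 (98.3 CPM, 74.4 to 127). The log2 ratio was 0.37 (-0.27 to 1.03), with an interval that spans 0. A single anti-PD-1 cell with 53 of its 2467 UMIs from *Il17a*, 8 from *Trdc* and 20 from *Cd163l1* (the scavenger receptor SCART1 of γδ T cells) decided this value, since without the highest cell of each library the log2 ratio was -2.24 (19 and 4 UMIs). With that cell kept, the log2 ratio was 1.81 (1.07 to 2.596) in Trdc T cells without *Cd4*, *Cd8* or *Trac* UMIs (19 and 57 UMIs). It was 4.81 (0.28 to 4.81) in those with a Y-linked UMI and no *Xist* UMI (0 and 53 UMIs). All of these values rest on the T cell gate, which did not lose cells evenly. With anti-PD-1, 2 cells with *Trdc*, *Cd163l1* and *Cd3g* UMIs stayed ungated and held 4 and 3 *Il17a* UMIs. No PBS cell with both *Trdc* and *Il17a* UMIs was left out. By *Trdc* UMIs alone, *Il17a* had 28 UMIs from 5 of 225 cells with PBS. With anti-PD-1 it had 64 UMIs from 4 of 283. The value of -2.24 therefore leaves out *Il17a* UMIs of the anti-PD-1 library only. The share of Trdc T cells among T cells differed by less than the counting error: 2.36% and 2.10% of T cells had a *Trdc* UMI after thinning, or 3.503% and 3.647% without it, against 0 of 1018 and 6 of 2722 neutrophils (0.220%) after thinning. Their make-up differed, since 72 of the 119 and 54 of the 134 held no *Cd4*, *Cd8* or *Trac* UMI. No *Il17f* or *Il22* UMI was found in Trdc T cells of either library, which allows levels of up to 8.03 CPM with PBS and 5.17 CPM with anti-PD-1.

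Outside the Trdc T cells, most *Il17a* UMIs were in gated T cells with *Trac* or *Trbc* transcripts. Grouped only by receptor UMIs, cells with *Trac* or *Trbc* transcripts and no *Trdc* held 40 *Il17a* UMIs in 17 cells with PBS and 107 UMIs in 32 cells with anti-PD-1. Of these, 36 UMIs in 16 cells and 97 UMIs in 24 cells were in gated T cells. A receptor UMI alone does not make a T cell here, since 7351 anti-PD-1 cells held *Trac* or *Trbc* UMIs without *Trdc* and 3674 were gated as T cells. Nor does this group establish an αβ lineage. Some of its gated anti-PD-1 T cells, among them those with 15 and 9 *Il17a* UMIs, held no *Trac* UMI, while others held it. CD8 T cells had 6 and 32 *Il17a* UMIs and CD4 T cells 1 and 11 (0 and 10 among the Y-linked cells). Other T cells had 29 and 37. Among the Y-linked cells other T cells had 9 and 10 (19.7 and 6.19 CPM), lower with anti-PD-1 at a log2 ratio of -1.14 (-2.04 to -0.13). Regulatory T cells had 0 with PBS and 17 with anti-PD-1, a level at least 4.33-fold higher against a floor of 3 UMIs over the class, but 16 of the 17 UMIs were in 1 cell, which held 1 *Foxp3* UMI.

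*Il22*, which encodes the interleukin that acts on epithelium and hepatocytes, showed the widest gap between the libraries. T cells had 2 *Il22* UMIs with PBS (0.180 CPM) and 62 with anti-PD-1 (3.81 CPM), a ratio of 21.2 (5.63 to 179) and a log2 ratio of 0.77 (0.60 to 0.83) on the compressed scale. Among the Y-linked cells T cells had 0 and 37 *Il22* UMIs from 359 and 2054 cells, a log2 ratio of 0.77 with an interval from 0.028 to 0.77. Over all T cells without the 3 highest of each library the log2 ratio was 0.45. Other T cells, without *Cd4*, *Cd8* or *Foxp3* UMIs, held 1 and 44 of the *Il22* UMIs of all T cells. Regulatory T cells held 0 and 15 in 3 cells, of which 10 were in 1 cell that also held *Cd8a* and *Cd8b1* UMIs. Cells that no gate claimed held 0 and 36 UMIs in 7 cells, a level at least 8.89-fold higher against the same floor, but 19 of the 36 UMIs were in 1 cell. After thinning, 0 of 3343 PBS T cells (which allows up to 0.0897%) and 8 of 3625 anti-PD-1 T cells (0.221%) had an *Il22* UMI, against 0 of 1018 and 2 of 2722 neutrophils (0.0735%). Of the 145 UMIs in the anti-PD-1 library, 115 were in 30 cells with *Trac* or *Trbc* transcripts, 8 in 5 cells with only *Cd3* transcripts, 22 in 12 cells with none of these, and 0 in cells with *Trdc*, and these groups include cells outside the T cell gate.

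The 23 anti-PD-1 cells with at least 2 *Il22* UMIs are set beside the 3648 anti-PD-1 T cells without *Il17a*, of which 9 held *Il22*. Of the 23, 8 were gated as T cells, 5 were ungated and 10 were gated to other classes, so the groups compared also differ in cell class. *Il23r* was found in 9 of the 23 against 34 of the 3648, *Ccr6* in 9 against 83, and *Il17a* in 2. *Rora*, a nuclear receptor gene of innate-like lymphocytes, and *Maf*, a transcription factor of interleukin-producing T cells, were each found in 15, against 890 and 1161. *Tmem176b*, a membrane protein gene of type 17 lymphocytes, was found in 18 against 681. *Il7r*, the receptor chain for interleukin-7, was found in 15 against 1716 (47.0%). Of the program genes not named here, each was found in 0 to 18 of the 23. No PBS cell held more than 1 *Il22* UMI.

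*Il17f* was found at more than 1 UMI in 3 cells, all with anti-PD-1. The cell with 22 *Il17f* UMIs had no *Cd3* or receptor UMI and 6 *Il7r* UMIs, and was gated as a monocyte or macrophage. The cell with 6 also had 6 *Il22* and 8 *Il7r* UMIs and was gated as a mature dendritic cell, so the levels of *Il17f* and *Il22* in that class came from 1 cell. The cell with 3 was a CD8 T cell with 6 *Il17a* and 4 *Il23r* UMIs. In T cells *Il17f* had 2 and 5 UMIs, a ratio of 1.71 with an interval from 0.280 to 17.96, wide enough to span a difference in either direction.

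**Figure D2:**
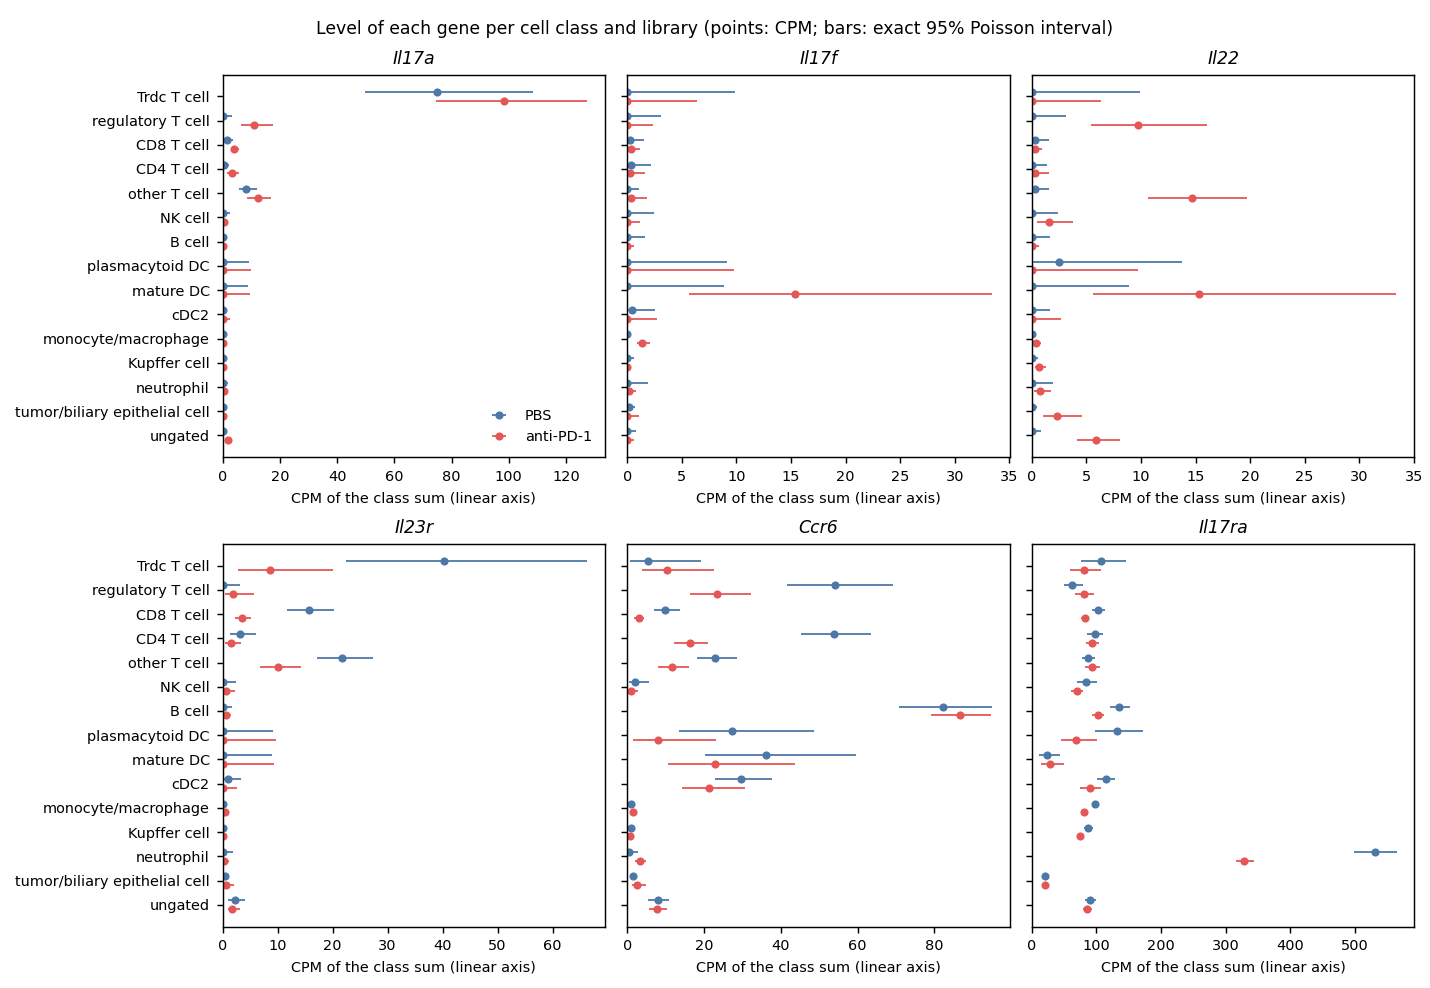
Level of each gene in CPM (linear axis) per cell class and library, with exact 95% Poisson intervals for each class sum. Il17a stood highest in Trdc T cells, Ccr6 in B cells and Il17ra in neutrophils, while the points of Il17f and Il22 in mature dendritic cells rest on 1 cell. Of the 57 Il17a UMIs behind the anti-PD-1 point in Trdc T cells, 53 were in 1 cell.

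*Il23r* and *Ccr6* were lower in T cells of the anti-PD-1 library. *Il23r* had 154 UMIs with PBS (13.8 CPM) and 70 with anti-PD-1 (4.30 CPM), 3.22-fold higher with PBS, with a log2 ratio of -1.02 (-1.24 to -0.78). *Ccr6* had 319 UMIs (28.7 CPM) and 156 (9.59 CPM), 2.99-fold higher with PBS, with a log2 ratio of -1.21 (-1.41 to -1.0). Both ratios were further from 0 among cells with a Y-linked UMI and no *Xist* UMI, at -1.62 for *Il23r* and -1.81 for *Ccr6*. The share of T cells with a UMI after thinning was 1.14% and 0.469% for *Il23r* and 2.18% and 0.910% for *Ccr6*. In neutrophils, which should lack *Il23r*, it was 0 of 1018 cells (which allows up to 0.295%) and 0 of 2722 (up to 0.110%), and for *Ccr6* 1 of 1018 (0.0982%) and 6 of 2722 (0.220%). Without thinning the T cell shares were 2.83% and 1.22% for *Il23r* and 5.83% and 2.48% for *Ccr6*. *Il17ra* had 92.7 and 86.6 CPM in T cells, a log2 ratio of -0.09 (-0.20 to 0.02), which became 0.09 when libraries were scaled by the median ratio of genes in the class. Of the 6 genes, *Ccr6* and *Il17ra* reached the level set for reading a 2-fold difference in T cells, and 0 were higher and 1 lower by 2-fold, where 1.82% of 8583 genes were higher and 0.711% lower. The lower gene, *Ccr6*, reached the limit only through the PBS library.

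The same direction was seen in most T cell groups for *Ccr6* and *Il23r*. In CD4 T cells *Ccr6* had 138 UMIs (53.8 CPM) and 56 (16.2 CPM), a log2 ratio of -1.47. It was the 1 lower gene of the 2 read there, against 2.24% of 8644 genes higher and 1.18% lower. In regulatory T cells *Ccr6* had 64 UMIs (54.2 CPM) and 36 (23.3 CPM), a log2 ratio of -1.06. It was again the 1 lower gene of 2, against 2.64% of 8671 genes higher and 1.96% lower. Among the Y-linked cells the log2 ratio of *Ccr6* was -2.33 (-2.99 to -1.63; 26 and 31 UMIs) in CD4 T cells and -1.39 (-2.51 to -0.096; 7 and 29 UMIs) in regulatory T cells. In CD8 T cells the log2 ratio was -0.90 for *Ccr6* (9.94 and 2.99 CPM) and -1.28 for *Il23r* (15.6 and 3.51 CPM), at mean levels under the limit. In the Y-linked cells these were -2.51 for *Ccr6* and -2.86 for *Il23r*, from 82 PBS and 861 anti-PD-1 CD8 T cells. In other T cells it was -0.84 for *Il23r* (21.8 and 10.001 CPM) and -0.75 for *Ccr6* (22.9 and 11.7 CPM), and among the Y-linked cells -0.62 (-1.63 to 0.45) and -0.31 (-1.23 to 0.64), with intervals that span 0. None of the 4 genes read in other T cells passed 2-fold, where 2.26% of 8576 genes were higher and 0.828% lower.

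In Trdc T cells the counts of the receptors were small. *Il23r* had 15 UMIs in 9 cells with PBS (40.2 CPM) and 5 UMIs in 4 cells with anti-PD-1 (8.62 CPM), a log2 ratio of -1.73 (-2.76 to -0.56). Among the Y-linked cells, with 13 PBS and 86 anti-PD-1 Trdc T cells, the counts were 0 and 5 and the log2 ratio ran from -2.86 to 1.83, too wide to give a direction. In Trdc T cells without *Cd4*, *Cd8* or *Trac* UMIs the log2 ratio was -0.61 (-2.24 to 1.01), under 2-fold and with an interval that spans 0. *Il17ra* had 40 and 47 UMIs (107 and 81.0 CPM), a log2 ratio of -0.38 (-0.99 to 0.23), and *Ccr6* had 2 and 6 UMIs. Of the 3 genes read, 0 were higher and 1 lower by 2-fold, in a class where 4.43% of 8534 genes were higher and 6.0% lower. The lower gene, *Il23r*, reached the limit only through the PBS library.

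**Figure D3:**
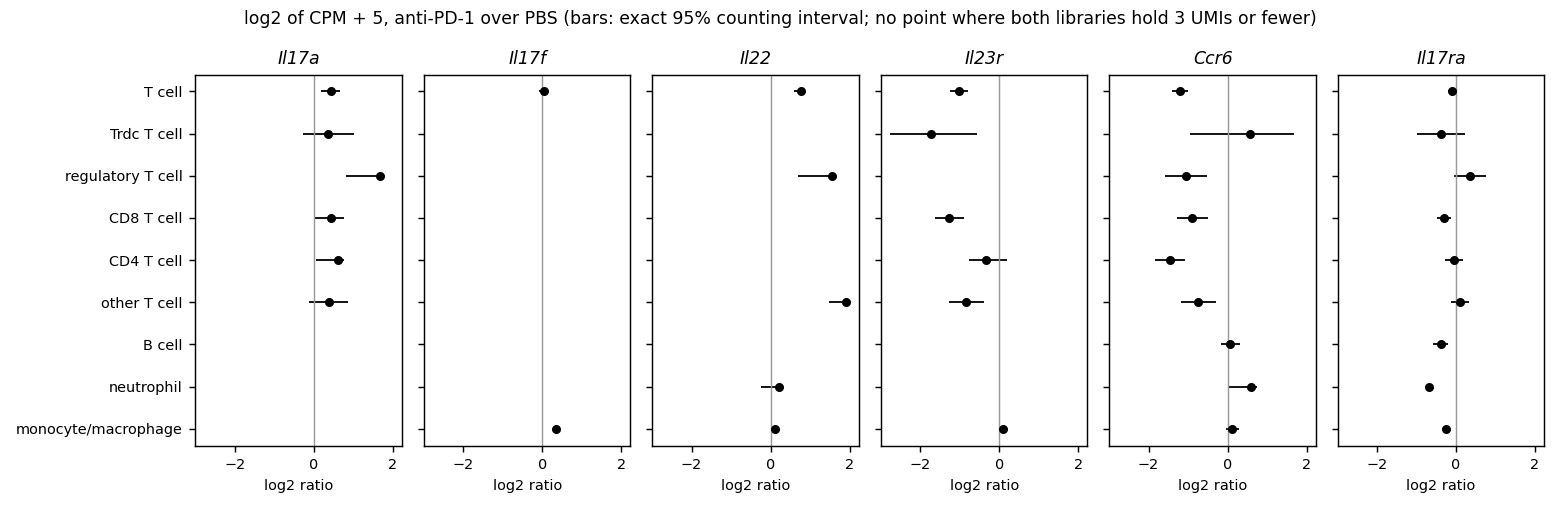
Log2 ratio of CPM plus 5, anti-PD-1 over PBS, of each gene in each cell class, with exact 95% counting intervals. Ccr6 lay below 0 in CD4, regulatory, CD8 and other T cells (-1.47 to -0.75) and at 0.07 in B cells, and Il17ra in neutrophils lay at -0.68.

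B cells carried the highest level of *Ccr6* in both libraries, apart from the next class by their counting intervals. They had 185 UMIs with PBS (82.2 CPM, 70.8 to 94.9) and 478 with anti-PD-1 (86.6 CPM, 79.0 to 94.8), a log2 ratio of 0.07. After thinning 6.49% and 7.31% of B cells held a *Ccr6* UMI, against 11.6% and 17.2% without it. Next in order of mean level came regulatory T cells (38.7 CPM), CD4 T cells (35.03 CPM), mature dendritic cells (29.6 CPM) and cDC2 (25.5 CPM), whose neighbors' intervals overlapped. The *Il17ra* level in B cells was 136 and 102 CPM, a log2 ratio of -0.39. Neither gene passed 2-fold in B cells, where 1.64% of 8525 genes were higher and 1.35% lower. The 5 genes whose levels over 36 sums of 18 classes were most like *Ccr6* had Pearson r of 0.76 to 0.81 and were led by *Nemf* and *Mif4gd*. The points share 2 libraries and r is given as a description.

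Neutrophils carried the highest level of *Il17ra*, and it was lower with anti-PD-1. They had 1017 UMIs with PBS (530.5 CPM, 498 to 564) and 2206 with anti-PD-1 (329.0 CPM, 315 to 343), a log2 ratio of -0.68 (-0.79 to -0.57). After thinning 38.9% of PBS neutrophils (35.9 to 42.0) and 26.7% of anti-PD-1 neutrophils (25.0 to 28.4) held a UMI. Without thinning these shares were 52.8% and 47.2%, at the unequal depths given above. Among the Y-linked cells the log2 ratio was -0.87, and with median-ratio scaling, which sets the typical gene of this class, at -0.34, to 0, it was -0.34. *Il17ra* did not pass 2-fold, where 2.98% of 7394 genes were higher and 4.75% lower. Its mean level was 119 CPM in B cells, the next class, and stayed between 71.8 and 102 CPM in cDC2, plasmacytoid dendritic cells, T cell groups, macrophages, Kupffer cells and NK cells, whose neighbors in order overlapped. It was 20.8 CPM in tumor and biliary epithelial cells, the lowest class with at least 50 cells in both libraries. The genes most like *Il17ra* over the 36 sums were led by *Ssh2* (r of 0.89).

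The genes most like *Il17a* were taken as those higher in its cells within both libraries. Over T cells with an *Il17a* UMI against T cells without, *Cd163l1* led with a log2 ratio of at least 4.46 in either library, followed by *Blk*, a B lymphoid kinase also used by interleukin-17-producing γδ T cells, at 4.09, and *Pxdc1* at 4.00. The *Cd163l1* value rested on few cells, since its 25 UMIs with PBS were in 5 of the 21 cells, and of its 41 UMIs with anti-PD-1, found in 4 of the 26 cells, 20 were in one Trdc T cell and 19 in another. *Ramp1*, a receptor subunit for the neuropeptide CGRP, followed at 3.16, then *Tmem176a*, *Tmem176b*, *Krt83*, *Trgc1*, *Actn2* and *Lmo4* at 2.96 to 2.40. Of T cells with an *Il17a* UMI, numbering 21 with PBS and 26 with anti-PD-1, *Il23r* was found in 10 and 11, *Il1r1* (the interleukin-1 receptor) in 11 and 15, and *Ccr6* in 9 and 8. Of the remaining 3376 and 3648 T cells, *Il23r* was found in 86 and 34, *Il1r1* in 131 and 57, and *Ccr6* in 189 and 83. For each of these genes the count among cells without *Il17a* was lower with anti-PD-1. The 21 and 26 *Il17a* cells were too few to tell whether their shares differed. *Il22* was found in 0 of the 21 and 5 of the 26, and *Trdc* in 5 and 2.

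**Figure D4:**
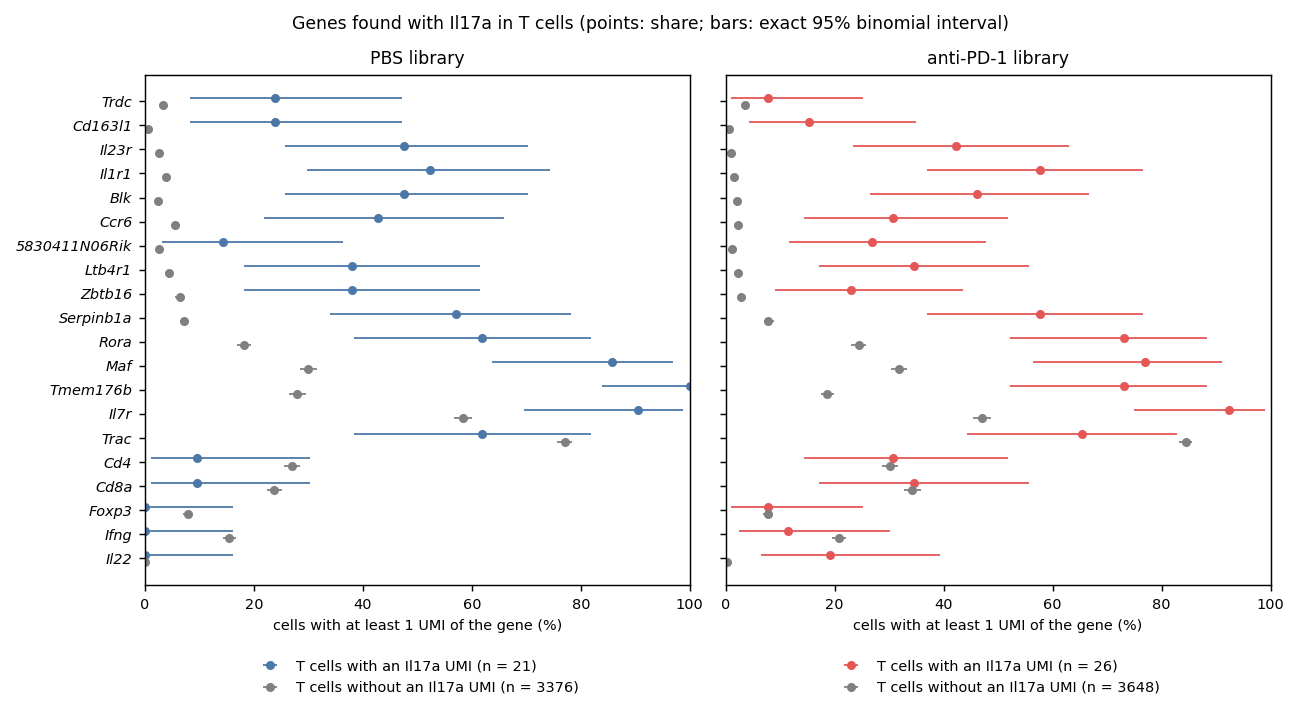
Share of T cells with at least 1 UMI of each gene (percent, linear axis from 0 to 100), for T cells with and without an Il17a UMI in each library, with exact 95% binomial intervals. Il23r was found in 10 of 21 and 11 of 26 Il17a cells, against 86 of 3376 and 34 of 3648 of the others.

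Other genes of the type 17 program were in part at lower levels in T cells of the anti-PD-1 library, and not in every T cell group. Of 24 program genes, 20 reached the level in T cells. Of these, 0 were 2-fold higher and 3 were 2-fold lower, where 1.82% of 8583 genes were higher and 0.711% lower. Their median log2 ratio was -0.31 against -0.13 for all genes of the class. With median-ratio scaling the median was -0.17 (-0.30 to 0.05), with an interval that spans 0, and among the Y-linked cells it was -0.77. By group the median of the genes read was -0.40 in CD8 T cells and -0.30 in other T cells, against -0.086 and -0.12 for all genes there. It was -0.086 in CD4 T cells against -0.14, and 0.30 in regulatory T cells against -0.084, where 11 of 16 genes read lay above 0. The group sizes given above differed between the libraries, and their part in the value over all T cells was not tested. Of the 20, 4 reached the limit only through the PBS library (*Zbtb16*, *Blk*, *Il1r1* and *Ltb4r1*), and the median over all 24 was -0.28. The log2 ratio was above 0 in 5 of the 20, the highest being *Irf4*, a factor of activated lymphocytes, which had 192 and 618 UMIs (17.3 and 38.0 CPM, 0.95) and was named after its value was seen. The 3 were *Tmem176a* (149 and 57.7 CPM, -1.29), *Zbtb16*, the innate-like lymphocyte factor PLZF (26.1 and 8.18 CPM, -1.24), and *Tmem176b* (204 and 88.0 CPM, -1.17), and *Ltb4r1*, a leukotriene B4 receptor, lay at -0.99. *Cd163l1* had 107 UMIs with PBS and 168 with anti-PD-1 in T cells, a log2 ratio of 0.07. Among the Y-linked T cells it had 1 and 88 UMIs, a log2 ratio of 1.19 (0.42 to 1.42). In Trdc T cells 22 of the 24 reached the level, with a median of -0.11 (0.76 in the Y-linked cells) against -0.10 for all genes. Of the 22, 1 was higher and 1 lower, in a class where 4.43% of 8534 genes were higher and 6.0% lower. The higher gene was *Batf*, a factor of activated T cells (40.2 and 148 CPM, 1.76). Among the Y-linked cells *Batf* had 2 and 48 UMIs, a log2 ratio of 1.02 (-0.82 to 3.45) with an interval that spans 0. The lower gene was *5830411N06Rik*, which encodes the scavenger receptor SCART2 (72.3 and 8.62 CPM, -2.50), reached the limit only through the PBS library and was named after its value was seen. It had 0 and 2 UMIs in the Y-linked cells. *Cd163l1*, which encodes SCART1, had 54 UMIs in 11 Trdc T cells and 126 UMIs in 12, a log2 ratio of 0.57. Among the Y-linked Trdc T cells, 13 with PBS, it had 0 and 76 UMIs, a log2 ratio of 5.31 (0.80 to 5.31). The 11 genes fixed for interferon-γ-producing γδ T cells had a median of 0.68 in Trdc T cells (0.18 in the Y-linked cells, -1.01 to 1.15), with 2 higher and 0 lower, among them *Gzmb*, the protease granzyme B (1.28, or 0.89 in the Y-linked cells), and *Ifng* itself lay at 0.71. In all T cells their median was 0.40, with *Ifng* (1.20), *Gzmb* (1.18) and *Xcl1*, a chemokine for cDC1 (1.12), higher. The shift was not particular to T cells. The median over all 11 was 0.94 in neutrophils, 0.91 in tumor and biliary epithelial cells and 0.88 in Kupffer cells, but 0.14 in NK cells.

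Of the other interleukin-17 ligands and companion cytokines only *Csf2*, which encodes GM-CSF, reached the level in T cells, at 10.96 and 16.04 CPM (0.40). *Il21* had 70 and 80 UMIs, and *Il17b* and *Il17c* none. Of the 11 receptor chains and adaptors, 5 reached the level in T cells, and 2 were 2-fold higher, against 1.82% of all genes there. These were *Nfkbiz*, an NF-κB cofactor induced by interleukin-17 (1.65), and *Zc3h12a*, the RNase regnase-1 (1.22). The median was -0.05, or 0.11 with median-ratio scaling. *Il17re*, the receptor chain for interleukin-17C, had 108 and 22 UMIs in T cells, a log2 ratio of -1.21 at a level too low to be read for 2-fold. In Trdc T cells 5 were read with 1 higher (*Nfkbiz*, 2.34) and 1 lower (*Traf3ip2*, the adaptor ACT1, -1.07). Of all 8534 genes read in that class 4.43% were higher and 6.0% lower.

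Some of the 8 cytokines that induce the program were higher in myeloid cells of the anti-PD-1 library. In monocytes and macrophages 3 of 5 genes read were 2-fold higher, in a class where 3.67% of 8224 genes were higher and 0.462% lower. *Il1b* lay at 3.06 and *Il1a* at 2.13, and *Il6*, with 25 UMIs with PBS and 1741 with anti-PD-1 (4.23), reached the level only through the anti-PD-1 library. The median over all 8 genes was 1.12. In Kupffer cells 3 of 5 were higher, among them *Il6* (2.69) and *Il1b* (2.05), where 2.08% of 8189 genes were higher and 0.269% lower, and the median over all 8 was 0.31. In neutrophils 3 of 5 were higher, where 2.98% of 7394 genes were higher and 4.75% lower, and the median over all 8 was 0.81. *Il1b* lay at 1.26, while *Il1a* (6 and 229 UMIs) and *Il23a*, the specific subunit of interleukin-23 (4 and 174 UMIs), reached the level only through the anti-PD-1 library and were named after their values were seen. In cDC1 1 of 4 was higher, where 4.16% of genes were higher and 4.16% lower, and in cDC2 1 of 3 (2.95% and 2.74%). In mature dendritic cells 2 of 5 were higher (5.51% and 11.3%), and *Il18* reached the limit there only through the anti-PD-1 library. In T cells 1 of 2 was higher (*Il1b*, 2.36), against 1.82% of all genes.

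Genes known to answer interleukin-17 and interleukin-22 were higher in part, and not in every class. The lists share genes, so their counts are not separate. Among the responsive genes, *Il6* is also an inducing cytokine, *Nfkbiz* also an adaptor and *Ccl20* also a program gene. *Il21* is both an inducing and a companion cytokine. Of 16 responsive genes, 9 were read in monocytes and macrophages with 6 higher and 0 lower, against 3.67% and 0.462% of all genes. Of the 6, *Il6* and *Mmp13* reached the level only through the anti-PD-1 library. *Cxcl1* lay at 4.75, *Cxcl2* at 3.03 and *Saa3* at 2.63 there, and the median over all 16 was 0.84. In Kupffer cells 6 of 10 were higher, against 2.08% of all genes (0.269% lower), and the median over all 16 was 0.82. In neutrophils 3 of 9 were higher, against 2.98% of all genes (4.75% lower), and the median over all 16 was 0.19. The 3 were *Cxcl3*, *Nfkbiz* and *Cxcl1*, the last of which reached the level only through the anti-PD-1 library and was named after its value was seen. In tumor and biliary epithelial cells 10 were read with 6 higher and 1 lower, where 3.05% of 9563 genes were higher and 2.03% lower, and the median over all 16 was 0.62. *Saa3*, among the higher genes, reached the limit only through the anti-PD-1 library. There *Cxcl2* lay at 2.96, *Cxcl1* at 2.57, *Nfkbiz* at 1.91 and *S100a9* at 1.84, and the lower gene, named after its value was seen, was *Reg3b*, an antimicrobial lectin (-1.31). In cancer-associated fibroblasts 11 were read with 5 higher and 3 lower, against 3.64% and 2.06% of all genes, and the median over all 16 was 0. There *Cxcl1* and *Il6* reached the limit only through the anti-PD-1 library and *Reg3b* only through the PBS library. In mature dendritic cells 9 were read with 2 higher and 2 lower, against 5.51% and 11.3% of all genes, and the median over all 16 was 0. There *Cxcl1* reached the limit only through the anti-PD-1 library and *Reg3g* only through the PBS library. *Il17ra* itself had 20.4 and 21.1 CPM in tumor and biliary epithelial cells. It lay at 98.1 and 80.8 CPM in monocytes and macrophages (-0.26), and it was the 1 gene of the 6 read in epithelial, monocyte and macrophage, Kupffer and neutrophil classes, with no 2-fold difference in any. In T cells 6 of 8 responsive genes were higher, among them the neutrophil calprotectin genes *S100a8* (1.76) and *S100a9* (1.69), and in Trdc T cells 6 of 8. Of the 6, *Cxcl1* and *Saa3* reached the level only through the anti-PD-1 library in both, and the medians over all 16 were 0.089 and 0.50. Of all genes 1.82% were higher and 0.711% lower in T cells, and 4.43% and 6.0% in Trdc T cells.

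Neutrophil transcripts were higher beside these lists in the other classes. The summed level of 8 neutrophil markers was 94.0 and 220 CPM in T cells, 62.5 and 165 CPM in tumor and biliary epithelial cells, 186 and 293 CPM in monocytes and macrophages, 138 and 209 CPM in Kupffer cells and 88.0 and 225 CPM in B cells. In neutrophils themselves it was 15153 and 13846 CPM. Of the 8 markers 7 or 8 were detected in each class sum, and *Ly6g* was at 0 in tumor and biliary epithelial cells of both libraries and in PBS T and B cells. Their part in the higher *Il1b*, *Cxcl2*, *S100a8* and *S100a9* of the other classes was not tested. Among cells with a Y-linked UMI and no *Xist* UMI the median of the responsive genes read in T cells was 0.96, against 1.67 in all T cells.

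The same lists were read in the Y-linked cells of each class, where PBS cells were fewer. In monocytes and macrophages, with 392 PBS and 1147 anti-PD-1 cells, *Il1b* lay at 3.19, *Il1a* at 2.05, *Il6* at 4.43 (3 and 1421 UMIs), *Cxcl1* at 4.69 and *Cxcl2* at 3.01. *Saa3* lay at 5.64 there, further from 0 than in all cells, and *Mmp13* at 0.66, under 2-fold. The medians over the whole lists were 1.16 for the inducing cytokines and 1.37 for the responsive genes. In Kupffer cells (123 and 879 cells) these medians were 0.46 and 1.05, with *Il1b* at 2.88 and *Il6* at 2.85. In neutrophils (68 and 1040 cells) they were 1.31 (-0.63 to 1.39) and 0.30 (-0.30 to 0.36), with *Il1b* at 1.08 and *Cxcl3* at 0.97 (5 and 238 UMIs), while *Il1a*, *Il23a* and *Cxcl1* had 0 UMIs with PBS. In tumor and biliary epithelial cells (91 and 321 cells) the median of the responsive genes was 1.21, with *Cxcl2* at 2.69, *Cxcl1* at 2.04, *Nfkbiz* at 2.11 and *S100a9* at 3.39. *Reg3b*, lower there over all cells with 355 and 57 UMIs, had 0 and 15 UMIs among the Y-linked cells, so its lower level was not seen in them. In cancer-associated fibroblasts 36 PBS and 89 anti-PD-1 cells remained. Of the genes lower there over all cells, *Saa3* had 0 and 36 UMIs among them and was higher with anti-PD-1 (3.38, 1.42 to 3.38). *Reg3b* had 0 and 1 UMIs and *Reg3g* 1 and 1. In mature dendritic cells 10 PBS and 39 anti-PD-1 cells remained. Of the genes lower there over all cells, *S100a9* had 0 and 41 UMIs among them and was higher with anti-PD-1 (4.85, 1.17 to 4.85). *Reg3g* had 3 and 1 UMIs (-2.60, -3.69 to -0.081). In T cells *Saa3* lay at -0.098 (-0.62 to 0.44) and *S100a9* at 0.91, both under 2-fold, and in Trdc T cells *Cxcl1* and *Saa3* had 1 and 7 UMIs each.

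**Figure D5:**
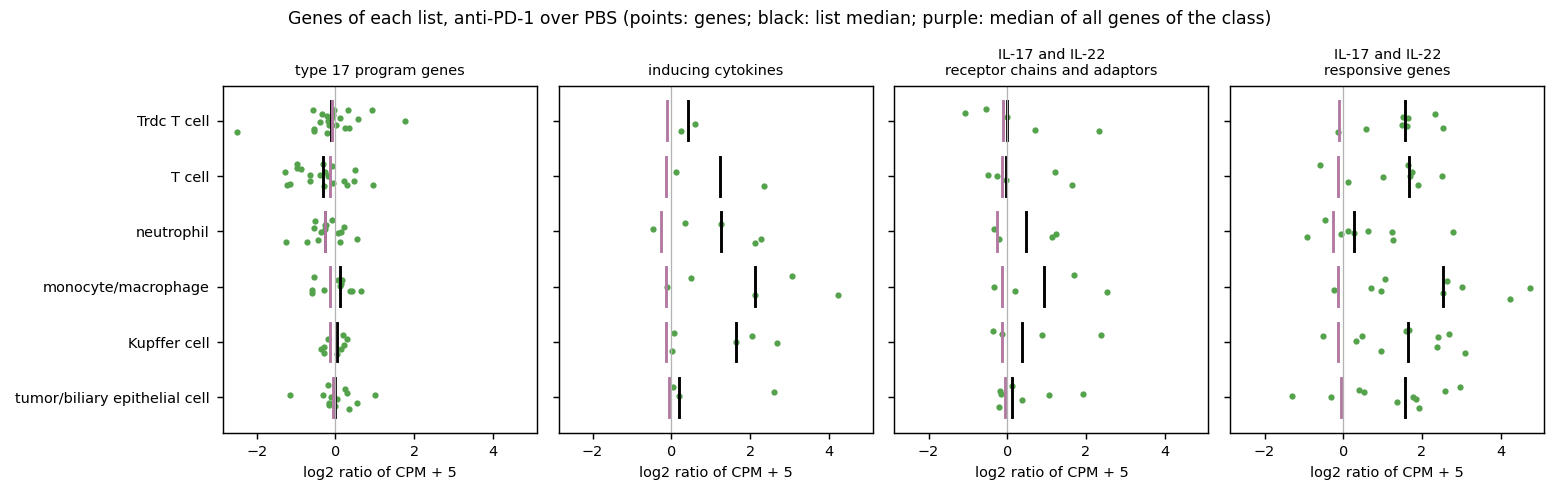
Log2 ratio of CPM plus 5, anti-PD-1 over PBS, of each gene read in the lists around the 6 genes, by cell class. Points are genes, black marks are list medians and purple marks are medians of all genes of the class: the program genes in T cells sat at -0.31, while the responsive genes that reached the level sat at 1.67 in T cells and 2.54 in monocytes and macrophages, with 2 of the higher genes in each reaching it only through the anti-PD-1 library.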

How the data were processed

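Cells of tumor-bearing livers were captured and sequenced with the Singleron GEXSCOPE V2 kit. The authors mapped reads to mm10 with Singleron software, whose version is not given in the sources used here, and deposited UMI counts per gene and barcode; the submitters' processing notes also name Seurat 4.3. The study describes several animals per group, but the files hold no map from cells to animals, so each library was 1 sample.

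Here UMI counts were read with Python 3.11.15, numpy 2.4.6, scipy 1.17.1 and pandas 2.3.3. Of 19397 PBS and 19451 anti-PD-1 barcodes, 15531 and 16360 passed 500 to 5000 genes and at most 10% mitochondrial UMIs. A cell joined the class whose markers had the highest mean scaled value, with a score of at least 0.15, a lead of 0.05 and 2 detected markers, settings chosen after the cells were seen. The 1255 and 1701 cells without such a lead stayed ungated, 844 and 1188 cells lay within 0.1 of the next class, and no doublet caller was run. Counts were summed per class and library. Intervals are exact Poisson, conditional binomial or Clopper-Pearson at 95%, and a count of 0 allows up to 3 UMIs or cells. For shares, cells were thinned to 1000 UMIs, which left out 54 and 49 T cells and 106 and 66 neutrophils. Beside the 6 genes in every class, up to 4 genes per list with the largest absolute log2 ratio and at least 10 UMIs in each library were named, with Trdc and Cd163l1 always. One gene of the fixed lists is not reported here. The 10 genes most like Il17a needed at least 20 UMIs in its cells of each library. The 5 genes most like Ccr6 or Il17ra were taken by Pearson r of log2(CPM plus 5) among genes with at least 200 UMIs. All 6 genes matched GRCm38 by identifier. The genes and lists were chosen with earlier results of these data known. The gate and interval code was tested on simulated data. The simulated cells were drawn from the class sums that this gate made, and the counts for the intervals were Poisson draws. This tests neither the class names nor intervals where a single cell holds many UMIs. The alternatives were other pseudocounts, scaling, cell limits, gates, thinning, highest cells left out and Y-linked cells, the last added for T cell groups and for lists outside T cells after the data were seen.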

Additional observations from a re-analysis of the deposited data

Results flagged for a closer look

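Barcodes outside the cell filter, 3866 with PBS and 3091 with anti-PD-1, were used in no comparison. Of the 6 genes, *Il22*, *Ccr6* and *Il17ra* had more than 3 UMIs outside the filter with anti-PD-1 and a counting interval wholly above that with PBS. *Il22* had 19 UMIs there (0.821 CPM) against 1 UMI (0.0235 CPM) outside the filter with PBS. *Ccr6* had 51 UMIs (2.20 CPM) against 52 (1.22 CPM). *Il17ra* had 882 UMIs (38.1 CPM) against 961 (22.5 CPM). For these the counting intervals did not overlap between the libraries. They overlapped for *Il17a* (7 UMIs, 0.303 CPM, against 1 UMI, 0.0235 CPM) and *Il23r* (6 UMIs, 0.259 CPM, against 9 UMIs, 0.211 CPM), and *Il17f* had 2 UMIs against 1. These barcodes mix cells with few genes, cells with very many genes and cells rich in mitochondrial transcripts.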

How the results depend on the processing

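No paired analysis was possible because each group is 1 library. Over 66 results, 259 alternatives gave a value: 194 stayed within the counting interval, 64 moved out of it, and 1 with an interval that excluded 0 turned its sign. Values are log2 ratios, anti-PD-1 over PBS, unless a share is named. That one was *Il23r* in Trdc T cells among cells with a Y-linked UMI and no *Xist* UMI (1.83, -2.86 to 1.83), where 13 PBS cells held 0 UMIs and no direction can be read. In these cells Trdc T cells gave 4.81 for *Il17a* and 0.50 for *Il17ra*, from 13 PBS cells, and list medians of 2.67 for inducing cytokines and 2.93 for receptors and adaptors. T cells gave 0.048 for *Il17a*, -1.62 for *Il23r*, -1.81 for *Ccr6* and -0.33 for *Il17ra*, and medians of -0.77 for the program, 0.96 for responsive genes and 0.90 for interferon-γ genes. *Ccr6* in B cells was 0.42, *Il17ra* in neutrophils -0.87, and *Il17f* and *Il22* in mature dendritic cells 2.34.

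With a pseudocount of 1 CPM, T cells gave 0.15 for *Il17f*, 2.03 for *Il22*, -1.48 for *Il23r* and -1.49 for *Ccr6*, and mature dendritic cells 4.03 for *Il17f* and *Il22*. With 20 CPM T cells gave 0.24 for *Il22*, -0.48 for *Il23r* and -0.72 for *Ccr6*. Median-ratio scaling sets the typical gene, at -0.19 in T cells and -0.12 in Trdc T cells, to 0, and so raises ratios. T cells then gave 0.85 for *Il22* and 0.088 for *Il17ra*, with medians of 1.42 for inducing cytokines, 1.86 for responsive genes and 0.59 for interferon-γ genes, mature dendritic cells 2.05 for *Il17f* and *Il22*, and neutrophils -0.34 for *Il17ra*. Without the highest cell of each library, an alternative added after seeing the data, *Il17a* was -2.24 in Trdc T cells and 0.17 in T cells. Without the 3 highest it was -2.27 and 0.13, and *Il22* in T cells 0.45. Mature dendritic cells gave no value for this. Trdc T cells without *Cd4*, *Cd8* or *Trac* UMIs gave 1.81 for *Il17a*. A gate by detected markers, also added after seeing the data, gave 0.59 for *Il22* in T cells. Thinned to 1000 UMIs, T cells gave 0.93 for *Il17a* and 0.95 for *Il22*. Without thinning, shares with PBS and anti-PD-1 were 25.2% and 24.6% for *Il17ra* in Trdc T cells and 3.503% and 3.647% for Trdc T cells among T cells, and 0.618% for *Il17a* in PBS T cells. At 2000 UMIs, *Il17ra* was found in 20.7% of PBS Trdc T cells and *Il23r* in 0% of anti-PD-1 Trdc T cells. Values whose interval spanned 0 also changed sign: *Il17a* in Trdc T cells without the highest cells, *Il17ra* in Trdc T cells in the Y-linked cells and, at 0.05, without *Cd4*, *Cd8* or *Trac* UMIs, and *Il17ra* in T cells with scaling. So did the median of the program in Trdc T cells in the Y-linked cells (0.76) and that of receptors and adaptors in T cells with scaling (0.11). The cause of these moves was not tested. With 3 or fewer UMIs in a class, depth limits any ratio of *Il17f* and *Il22*.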
